A study of Mus musculus with 170 samples.

Results

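Sorted cells labelled lymph node fibroblasts were compared with sorted cells labelled muscle fibroblasts, both from young mice, by RNA sequencing. Both groups came from animals of a C57/Bl6 background aged 2 months, and no treatment, allele or sex is named for either. The comparison held 3 libraries of each kind, 6 of the 170 libraries of a series that covers 23 cell types at 2 ages, and all 6 were taken by their labels. Each library pooled the tissue of 5 animals before sorting, so a p-value here measures the spread between pools, and the sources used here do not name the surface markers of the sort. The matched libraries of old mice (22 to 24 months, 3 of each kind) served only to repeat the contrast. Of 55484 genes listed, 13804 had enough counts to be tested. Levels are CPM, counts relative to the library size, which the TMM method corrects for composition. Means over whole sorts are CPM of the plain library total. Differences are log2 fold changes, lymph node minus muscle, with the standard error after the sign ±. A gene is called higher or lower where the adjusted p of edgeR's quasi-likelihood test was under 0.05.

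Fibroblasts make and remodel the collagen-rich matrix of most tissues, and they also carry a memory of where in the body they arose, held in Hox and other regional transcription factors. In lymph nodes, reticular fibroblasts secrete the chemokines Ccl19, Ccl21a and Cxcl13, which guide T cells, dendritic cells and B cells to their zones, and the survival cytokine Il7. In skeletal muscle, the fibroblasts between the fibres, often called fibro-adipogenic progenitors, carry the receptor Pdgfra, lay down basement membrane around the fibres and support satellite cells, the muscle stem cells. These statements are background. In bulk libraries such as these, fewer cells of a type and less RNA per cell cannot be told apart.

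Total counts of the young libraries ran from 2152821 to 6586459, and no pair of replicates held identical counts. Replicate 1 of each tissue carried transcripts of the Y-linked gene Ddx3y at 39.9 (lymph node) and 156.3 (muscle) CPM of the plain library total, against at most 1.86 in the other 4 libraries. Xist, which silences the second X chromosome of females, stood at 93.2, 104 and 93.9 CPM in lymph node and 304, 352 and 508 CPM in muscle libraries (log2 fold change -2.0 ± 0.23, adjusted p = 3.92e-05). Replicate 1 also stood highest in its tissue for several collagens, and some counts below are therefore also given without replicate 1 of both tissues. Counts without such a value can move too. Without replicate 1 of both tissues, 24 lower matrix glycoprotein and proteoglycan genes became 20. Likewise 12 lower matrix enzymes became 9, 10 lower blood endothelial markers became 9, and 12 higher Wnt genes became 13.

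The labels were first checked against marker genes. Both groups carried general fibroblast genes at high levels, and the signature of lymph node reticular cells was thin in the lymph node libraries. Of 10 fibroblast markers, all tested, 1 was higher and 4 were lower in the lymph node libraries, where 23% of all genes tested were called higher and 24.2% lower. Without replicate 1 of both tissues the counts were 1 higher and 2 lower, and without muscle replicate 1 or muscle replicate 2 alone 3 were higher. Col1a1, a chain of type I collagen (chr11:94936224-94953042, plus strand on GRCm38), stood at 22708, 13775 and 6013 CPM in lymph node and 22033, 5676 and 6402 CPM in muscle libraries. These libraries overlap, and the difference did not pass the test (log2 fold change 0.32 ± 0.57, adjusted p = 0.679). Dcn, for the collagen-binding proteoglycan decorin, was at 24282, 22501 and 24774 CPM in lymph node and 11333, 18521 and 13123 CPM in muscle libraries (log2 fold change 0.74 ± 0.35, adjusted p = 0.101). Its log2 fold change was 1.01 (adjusted p = 0.0415) without muscle replicate 2. An alternative test, DESeq2, called Dcn higher in the lymph node libraries, at 0.77 (adjusted p = 0.00419). Pdgfra, the receptor that marks fibro-adipogenic progenitors, was at 102, 87.6 and 92.2 CPM in lymph node and 551, 639 and 483 CPM in muscle libraries (log2 fold change -2.57 ± 0.21, adjusted p = 3.78e-06). All muscle libraries lay above all lymph node libraries, and the mean of 550.4 CPM in muscle fibroblasts was the highest of the 23 young sorts. Pdpn, for podoplanin, used to sort lymph node reticular cells, stood at 416, 1166 and 463 CPM in lymph node and 2091, 1600.0 and 1931 CPM in muscle libraries and was lower in the lymph node libraries (log2 fold change -1.46 ± 0.37, adjusted p = 0.00644). Without replicate 1 of both tissues its adjusted p was 0.0686 and its log2 fold change -1.06.

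Of 8 markers of lymph node reticular cells, 5 had enough counts to be tested, of which 1 was higher and 2 were lower. Ccl19, the T zone chemokine (chr4:42754525-42756577, minus strand on GRCm38), stood at 16.7, 20.3 and 19.1 CPM in lymph node and 1.66, 0.993 and 0 CPM in muscle libraries, and no library of one tissue reached the range of the other (log2 fold change 4.29 ± 0.52, adjusted p = 5.61e-05). Ccl19 passed the test's minimum only through the lymph node libraries, which fixed its direction. Its mean of 18.6 CPM was exceeded among the young sorts by 24.2 in the libraries labelled neurons. Those libraries also had the highest young mean of Cxcl13, at 540.5 CPM, and means of 155.1 for Ccl21a, 15.4 for Il7 and 5.40 for Madcam1. Cxcl13, the B cell zone chemokine, went the other way, at 3.24, 1.76 and 10.7 CPM in lymph node and 15.3, 44.5 and 63.0 CPM in muscle libraries (log2 fold change -2.94 ± 0.59, adjusted p = 0.00157). Il7 was at 10.4, 10.6 and 19.3 CPM in lymph node and 4.14, 9.14 and 8.67 CPM in muscle libraries, with an adjusted p of 0.0967. Ccl21a was listed at 1.37, 1.47 and 1.13 CPM of the plain library total in the lymph node libraries and at 0 in all muscle libraries, under the test's minimum. Ccl21a reached its highest mean, 210.5, in the lymph node endothelial sort, and its counts are uncertain because the table also lists near-identical copies. Madcam1, a marker of marginal reticular cells and of lymph node vessels, had 0 counts in all 6 libraries. Apart from Ccl19 and Il7, these markers were lower than in muscle or at or near 0, which goes against the label lymph node fibroblasts, and the libraries labelled neurons had higher means of these 5 genes, a difference that was not tested. Whether the label or the sort is at fault was not tested. Every value given for lymph node is a value of the libraries with that label, and says nothing about the cell type.

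Markers of other cell types differed strongly between the groups. Their counts are to be read beside the 23% of all genes tested that were higher and the 24.2% that were lower. All 7 keratinocyte markers were higher in the lymph node libraries, where their summed level ran from 1911 to 2076 CPM against 15.3 to 22.4 in muscle. Krt14, a keratin of basal epidermis, was at 1008, 874 and 756 CPM in lymph node and 0.414, 0 and 0 CPM in muscle libraries. Krt5, its partner, was at 300.1, 187 and 225 CPM in lymph node and 0, 0 and 0 CPM in muscle libraries. Krt2, a keratin of upper epidermis, was at 543, 769.7 and 486 CPM in lymph node and 0, 0 and 0 CPM in muscle libraries. Counted against 3 reads over the muscle group, Krt5 was at least 799-fold and Krt2 at least 1861-fold higher, and the ratio for Krt14, with 1 muscle read, was 8617 (exact 95% counting interval 1546 to 340400.0). Krt2 reached a mean of 7666 CPM in the skin fibroblast sort, 595.1 in the lymph node fibroblast sort and 10.6 in the keratinocyte sort. Tendon and nerve sheath genes were also higher: 5 of 7 tenocyte markers, with sums of 1811 to 3476 against 315.6 to 426.3 CPM, and 3 of the 4 glial markers tested. Scx, the tendon transcription factor, was at 37.0, 34.4 and 58.7 CPM in lymph node and 0.414, 1.39 and 2.28 CPM in muscle libraries. S100b, found in Schwann cells and in cartilage, was at 281, 215 and 199 CPM in lymph node and 18.6, 17.9 and 10.5 CPM in muscle libraries.

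Genes typical of cartilage formed a further group, chosen after their values were seen. Of 7 such genes 6 had enough counts to be tested and all 6 were higher, and Matn1 was not tested. That count is no test, because the genes were picked by their values. Apart from Cytl1, they also passed the minimum only through the lymph node libraries, which fixed their direction. Col2a1, the main collagen of cartilage, was at 190.2, 85.5 and 124 CPM in lymph node and 2.07, 3.58 and 3.65 CPM in muscle libraries (log2 fold change 5.38 ± 0.37, adjusted p = 1.05e-06). Acan, its large proteoglycan, was at 61.0, 40.8 and 42.8 CPM in lymph node and 3.73, 1.59 and 1.82 CPM in muscle libraries (log2 fold change 4.41 ± 0.36, adjusted p = 4.06e-06). Cnmd, for chondromodulin, was at 418, 286 and 365 CPM in lymph node and 0.828, 1.19 and 5.02 CPM in muscle libraries (log2 fold change 7.41 ± 0.44, adjusted p = 3.14e-07). Cytl1, a cytokine-like protein of cartilage, was at 3966, 3636 and 6237 CPM in lymph node and 17.4, 139 and 185 CPM in muscle libraries (log2 fold change 5.34 ± 0.68, adjusted p = 8.5e-05). Col2a1, Acan, Cnmd, Cytl1, Col9a1, Hapln1, Ucma, Gdf5 and Chad each had their highest mean of all 23 young sorts in the lymph node fibroblast libraries. For Cytl1 that mean was 4613 CPM, followed by 140.9 in the skin fibroblast sort, and for Col2a1 it was 131.0, followed by 98.2 in the satellite cell sort.

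Markers of blood endothelium and several of satellite cells were higher in the muscle libraries. Those of pericytes and smooth muscle were split: of 8 tested, 4 were higher and 3 lower in the lymph node libraries. Without replicate 1 of both tissues 2 were higher and 1 was lower. Kcnj8, among the higher ones, averaged 30.6 CPM in lymph node and 4.86 CPM in muscle libraries. All 10 blood endothelial markers were lower in the lymph node libraries, where their summed level ran from 36.1 to 77.7 CPM against 581.9 to 1147 in muscle. Ptprb, a vascular phosphatase, was at 2.43, 5.00 and 8.91 CPM in lymph node and 109, 276 and 286 CPM in muscle libraries (log2 fold change -5.39 ± 0.48, adjusted p = 7.02e-06). Pecam1, the endothelial junction gene, was at 4.05, 4.41 and 10.9 CPM in lymph node and 70.8, 117 and 131 CPM in muscle libraries (log2 fold change -4.04 ± 0.38, adjusted p = 1.11e-05). For comparison, Pecam1 averaged 1088 CPM in the lymph node endothelial sort and 105.8 in the muscle fibroblast sort. Of 5 satellite cell markers tested 3 were lower in the lymph node libraries. Myf5, a determination factor of the muscle lineage, was at 6.0, 7.35 and 3.70 CPM in lymph node and 104, 114 and 85.3 CPM in muscle libraries (log2 fold change -4.16 ± 0.28, adjusted p = 8.65e-07), against a mean of 6040 in the satellite cell sort. Macrophage markers were low in both groups: the sum of 10 ran from 47.2 to 58.3 CPM in the lymph node libraries and from 11.2 to 17.2 in muscle, and 3 of the 5 tested were higher. None of 10 T cell markers and none of 8 neutrophil markers had enough counts to be tested, and T cell markers summed to at most 6.10 CPM in the lymph node libraries. The part of these other cells in the results was not tested.

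**Figure D1:**
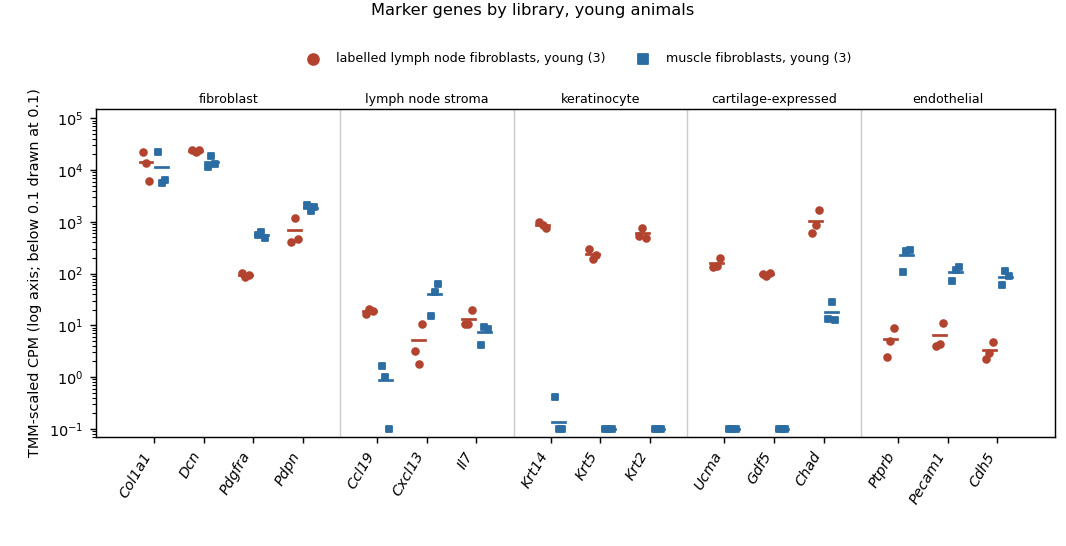
TMM-scaled CPM (log axis, values under 0.1 drawn at 0.1) of marker genes in each young library, circles for the 3 libraries labelled lymph node fibroblasts, squares for the 3 muscle libraries, with a bar at each group's mean. Col1a1 overlaps between the groups, Ccl19, Krt14 and Ucma are high in the lymph node libraries, and Cxcl13, Pdgfra and the endothelial genes are high in muscle.

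Across all genes, 6512 of 13804 were called (47.2%), 3175 higher (23%) and 3337 lower (24.2%) in the lymph node libraries. Counts of list members are to be read beside these shares. A gene with few or no reads in a group passed the minimum only through the other group, which fixed its direction. The libraries of the tissues did not overlap for 57.3% of genes, with lymph node above for 28.9% and muscle above for 28.4%. The median log2 fold change was -0.03. By size, 326 called genes were higher and 125 lower by at least 4 on the log2 scale, and 140 and 19 by at least 6. Fitted values of that size depend on how a gene with no reads in a group is treated. Without replicate 1 of both tissues 4914 genes were called, 2573 higher and 2341 lower, and in a test against a log2 difference of 1 the calls numbered 2585, 1314 higher and 1271 lower.

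At the upper end, the genes with the highest fold changes at 20 CPM or more had few or no reads in muscle. Calm4, a calmodulin-like gene of differentiating epidermis, was at 307, 404 and 300.4 CPM in the lymph node libraries and had 0 counts in muscle, at least 1055-fold higher. Ucma, for a secreted protein of cartilage, was at 135, 143 and 201 CPM against 0, at least 508-fold. Gdf5, the joint-forming growth factor, was at 97.5, 89.0 and 102 CPM against 0, at least 312-fold. Snorc, for a membrane proteoglycan of cartilage, was at 86.9, 76.7 and 77.6 CPM against 0, at least 262-fold. Ccl20, which attracts cells with the receptor Ccr6, was at 65.2, 86.1 and 82.0 CPM against 0, at least 243-fold. The serpin genes Serpinb5 (94.2, 95.8 and 76.3 against 0, 0 and 0 CPM) and Serpinb2 (668, 658 and 566 against 0, 0 and 2.28 CPM), Krt15 (216, 156 and 193 against 0, 0 and 0 CPM) and the desmosomal cadherin gene Dsc3 (119, 128 and 128 against 0, 0.199 and 0 CPM) complete the top of the list beside Krt2, Krt5 and Krt14. Within each of these genes the 3 lymph node libraries differed by less than 2-fold.

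At the lower end stood Hoxa10, Hoxc10, Hoxc9, Hoxc8, Hoxa9, En1 and Ptprb, which are described with their groups, and 5 further genes. Lgi2, a secreted protein best known from synapses, was at 1.95, 0.588 and 0.652 CPM in lymph node and 143, 51.2 and 109.9 CPM in muscle libraries (log2 fold change -6.39 ± 0.50, adjusted p = 2.71e-06). Stmn4, a microtubule regulator of the stathmin family, was at 0.973, 0 and 0.435 CPM in lymph node and 43.1, 26.4 and 60.2 CPM in muscle libraries (log2 fold change -6.20 ± 0.54, adjusted p = 6.46e-06). Adgrl4, an adhesion receptor of endothelium, was at 0.486, 0.588 and 1.09 CPM in lymph node and 31.5, 40.5 and 22.8 CPM in muscle libraries (log2 fold change -5.43 ± 0.43, adjusted p = 2.7e-06). Dmrt2, a factor of the dermomyotome, was at 0.486, 0 and 0.87 CPM in lymph node and 22.4, 15.3 and 26.9 CPM in muscle libraries (log2 fold change -5.36 ± 0.55, adjusted p = 1.83e-05). Rtn1, a reticulon, was at 0.973, 0 and 1.09 CPM in lymph node and 22.8, 32.2 and 39.2 CPM in muscle libraries (log2 fold change -5.31 ± 0.50, adjusted p = 1.1e-05). Plau, for urokinase, which activates plasminogen, was named after its values were seen, at 60.3, 113 and 46.3 CPM in lymph node and 2137, 1279 and 2402 CPM in muscle libraries (log2 fold change -4.73 ± 0.40, adjusted p = 4.72e-06).

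**Figure D2:**
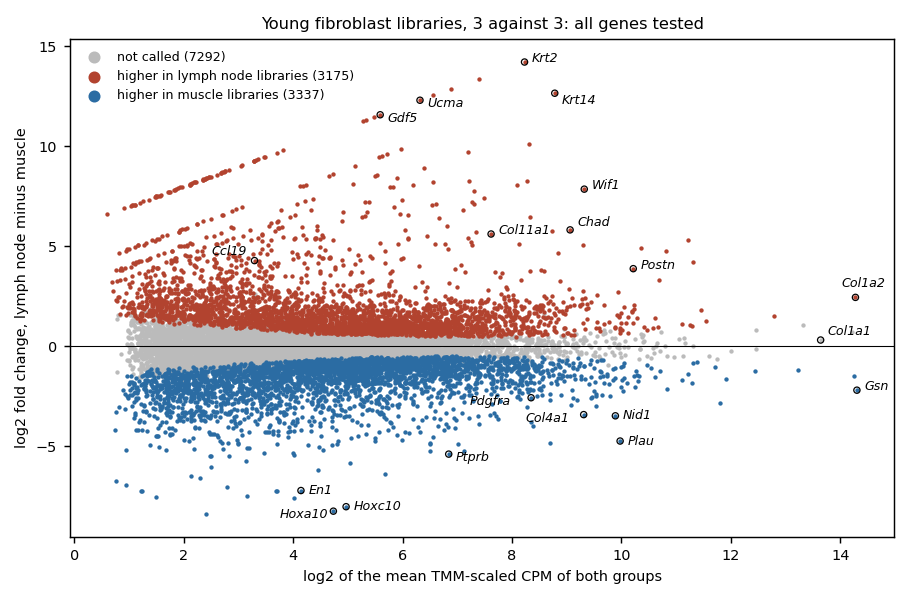
Each point is 1 of 13804 genes, with the log2 of its mean level over both groups on the x axis and its log2 fold change, lymph node minus muscle, on the y axis. Red and blue mark the 3175 genes called higher and the 3337 called lower, and the fitted values of genes with 0 reads in a group, such as Krt2 in muscle, have no upper limit set by the data.

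Hox genes encode the transcription factors that record position along the body axis and, in limbs, from shoulder to digit. Of 39 Hox genes 16 had enough counts, and 14 of these were lower in the lymph node libraries, 1 was higher and 1 was not called. Of the 16, 10 had 0 to 3 reads in the lymph node group and so passed the minimum only through muscle, which fixed their direction. The same holds for Hoxa5 and Hoxb4, which lay under the minimum in every lymph node library. Without the filter 38 Hox genes were fitted, of which 19 were lower and 1 higher, with a median log2 fold change, young lymph node minus muscle, of -3.22. All 7 Hoxc genes tested were lower, with log2 fold changes from -8.02 to -3.53. Hoxc10 stood at 0.324, 0 and 0.217 CPM in lymph node and 60.1, 68.5 and 58.4 CPM in muscle libraries, a ratio of muscle to lymph node counts of 303 (exact 95% counting interval 103 to 1472). Hoxa10 stood at 0, 0.588 and 0 CPM in lymph node and 19.9, 49.3 and 89.9 CPM in muscle libraries, a ratio of 362 (exact 95% counting interval 99.8 to 3000.0). Hoxc9 stood at 0.324, 0 and 0 CPM in lymph node and 21.1, 44.1 and 31.5 CPM in muscle libraries, a ratio of 251 (exact 95% counting interval 69.0 to 2084). Hoxa9 was at 0, 0 and 0.435 CPM in lymph node and 22.4, 33.6 and 20.5 CPM in muscle libraries, a ratio of 197 (exact 95% counting interval 54.0 to 1635). For these posterior genes the lymph node libraries held 2 or 3 reads in all, and no library overlapped. Hoxc8, from the middle of the cluster, was at 0.162, 0 and 0.217 CPM in lymph node and 22.4, 32.0 and 23.7 CPM in muscle libraries. Its neighbour Hoxc6 was at 0.162, 0 and 0 CPM in lymph node and 25.7, 20.1 and 7.76 CPM in muscle libraries. Hoxb7 and Hoxc5 had 0 counts in the lymph node libraries and were at least 28.9-fold and 22.1-fold lower there. Among the more anterior genes Hoxa5 was at 0.324, 0.882 and 0.435 CPM in lymph node and 8.28, 10.9 and 15.5 CPM in muscle libraries (log2 fold change -4.43 ± 0.53, adjusted p = 5.21e-05). Hoxb4 was at 0.162, 0.294 and 0.652 CPM in lymph node and 6.63, 6.95 and 5.93 CPM in muscle libraries (log2 fold change -4.08 ± 0.56, adjusted p = 0.000139).

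Hoxa2, which patterns the second branchial arch and acts in the outer ear, was the exception. It stood at 23.7, 25.6 and 25.4 CPM in lymph node and 2.07, 1.19 and 0.912 CPM in muscle libraries, higher in the lymph node libraries without overlap (log2 fold change 4.16 ± 0.38, adjusted p = 7.81e-06). Hoxa2 passed the minimum only through the lymph node libraries, which fixed its direction. Its mean of 24.7 CPM was the highest of the 23 young sorts, followed by 15.8 in the thymic epithelial sort. Hoxc10 was highest in satellite cells, at 75.8, with 61.6 in muscle fibroblasts. Hoxb2, the only Hox gene tested but not called, was at 1.46, 3.23 and 1.96 CPM in lymph node and 7.46, 13.1 and 0.456 CPM in muscle libraries (log2 fold change -1.80 ± 0.71, adjusted p = 0.0554), where muscle replicate 3 was the low library, and without it the log2 fold change was -2.23 (adjusted p = 0.00487).

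Other regional and stromal transcription factors split in both directions: of 41 tested, 10 were higher and 18 lower. The shares over all genes tested were 23% and 24.2%. Among limb factors, Tbx4, which acts in hindlimb development, was at 0.162, 0 and 0 CPM in lymph node and 9.53, 10.9 and 8.67 CPM in muscle libraries, with 1 read in the lymph node group and a ratio of 143 (exact 95% counting interval 25.0 to 5689). Tbx5, its forelimb counterpart, was at 0, 0.588 and 0.87 CPM in lymph node and 6.63, 10.5 and 23.3 CPM in muscle libraries (log2 fold change -4.83 ± 0.75, adjusted p = 0.000313). Both were thus detected in the same muscle libraries. En1, a homeobox factor, was at 0.486, 0 and 0 CPM in lymph node and 35.2, 43.7 and 26.5 CPM in muscle libraries, a ratio of 178 (exact 95% counting interval 60.4 to 866), and had means of 34.6 CPM in the muscle fibroblast sort and 83.7 in the satellite cell sort. Shox2, a factor of the proximal limb, was at 8.92, 11.8 and 8.91 CPM in lymph node and 128, 126 and 77.1 CPM in muscle libraries (log2 fold change -3.50 ± 0.27, adjusted p = 2.25e-06). Tbx3 was at 7.30, 8.23 and 11.3 CPM in lymph node and 137, 164 and 141 CPM in muscle libraries (log2 fold change -4.04 ± 0.24, adjusted p = 3.14e-07). The 3 Ebf genes tested, of a family that acts in adipose and stromal progenitors, were lower. Ebf2 was at 9.73, 6.47 and 6.52 CPM in lymph node and 144, 162 and 147 CPM in muscle libraries (log2 fold change -4.29 ± 0.24, adjusted p = 2.18e-07). Ebf3 was at 1.78, 2.35 and 1.96 CPM in lymph node and 34.8, 36.0 and 43.8 CPM in muscle libraries (log2 fold change -4.23 ± 0.30, adjusted p = 1.35e-06). The mesodermal factors Meox1 (14.4, 10.3 and 14.6 against 94.4, 141 and 89.0 CPM, log2 fold change -3.04 ± 0.26, adjusted p = 5.29e-06) and Meox2 (19.6, 12.9 and 21.5 against 123, 154 and 108 CPM, log2 fold change -2.82 ± 0.25, adjusted p = 6.6e-06) went the same way.

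The 4 Irx genes tested, homeobox factors of the Iroquois family, were all higher in the lymph node libraries. In muscle Irx1 had 0 counts, and Irx2 and Irx5 averaged 0.909 and 1.24 CPM. These genes passed the minimum only through the lymph node libraries, which fixed their direction. Irx3 was at 95, 92.9 and 101 CPM in lymph node and 18.6, 8.14 and 9.12 CPM in muscle libraries (log2 fold change 3.04 ± 0.30, adjusted p = 1.38e-05). Irx5 was at 43.9, 43.8 and 48.9 CPM in lymph node and 1.24, 0.199 and 2.28 CPM in muscle libraries (log2 fold change 5.49 ± 0.47, adjusted p = 5.46e-06). Irx1 was at 11.0, 12.9 and 8.04 CPM with 0 counts in muscle, at least 33.8-fold higher. Gata3, a factor of epidermis, hair follicle and lymphocytes, was at 60.8, 143 and 87.0 CPM in lymph node and 2.90, 7.75 and 4.11 CPM in muscle libraries (log2 fold change 4.18 ± 0.41, adjusted p = 1.26e-05). Twist1, a factor of mesenchyme, was at 69.9, 73.8 and 76.7 CPM in lymph node and 36.9, 28.2 and 34.7 CPM in muscle libraries (log2 fold change 1.15 ± 0.20, adjusted p = 0.000757). Prrx2 was at 79.8, 68.5 and 61.5 CPM in lymph node and 23.6, 11.3 and 10.9 CPM in muscle libraries (log2 fold change 2.21 ± 0.30, adjusted p = 0.000132). Meis1, a Hox cofactor, was at 118, 127 and 137 CPM in lymph node and 34.4, 49.1 and 34.2 CPM in muscle libraries (log2 fold change 1.69 ± 0.21, adjusted p = 7.35e-05). Prrx1, a general factor of limb and skin mesenchyme, did not pass (374, 355 and 395 against 367, 226 and 267 CPM, log2 fold change 0.39 ± 0.22, adjusted p = 0.168), and it did without muscle replicate 1, at 0.62 (adjusted p = 0.0333).

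**Figure D3:**
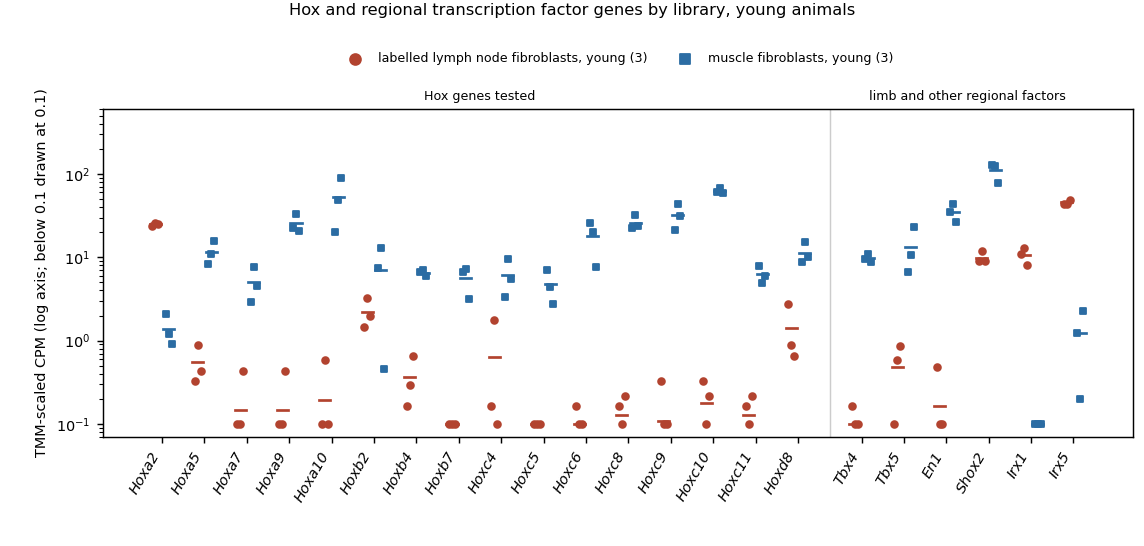
TMM-scaled CPM (log axis, values under 0.1 drawn at 0.1) of the 16 Hox genes tested and of 6 other regional factors in each young library, circles for lymph node and squares for muscle, with a bar at each group's mean. Hoxa2, Irx1 and Irx5 are high in the lymph node libraries, and Hoxb2 is the only Hox gene whose libraries overlap.

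Collagens divided by class. Of 29 collagen genes tested 9 were higher in the lymph node libraries and 11 lower, against 23% and 24.2% of all genes tested. The list's median log2 fold change was -0.42. The network-forming collagens of basement membranes, the thin sheets around muscle fibres and vessels, were lower: all 5 type IV genes tested had log2 fold changes from -3.79 to -2.41. Col4a1 was at 113, 97.3 and 116 CPM in lymph node and 1496, 962 and 1022 CPM in muscle libraries (log2 fold change -3.41 ± 0.26, adjusted p = 1.9e-06). Col4a2 was at 151, 102 and 101 CPM in lymph node and 947, 402 and 544 CPM in muscle libraries (log2 fold change -2.41 ± 0.32, adjusted p = 0.000108). Col15a1, a basement membrane collagen of muscle and vessels, was at 19.5, 12.6 and 10.00 CPM in lymph node and 348, 159 and 113 CPM in muscle libraries (log2 fold change -3.86 ± 0.41, adjusted p = 2.44e-05). Col5a3, a regulator of fibril assembly, was at 50.8, 33.8 and 45.7 CPM in lymph node and 860.4, 344 and 616 CPM in muscle libraries (log2 fold change -3.80 ± 0.34, adjusted p = 6.86e-06). In each of these the muscle libraries all lay above the lymph node libraries, with muscle replicate 1 the highest. Muscle lay above without overlap for 28.4% of all genes tested.

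Higher in the lymph node libraries were chains of cartilage, of the dermal junction and of short networks. Col11a1, a cartilage fibril chain, was at 452, 342 and 360.0 CPM in lymph node and 9.94, 7.55 and 5.93 CPM in muscle libraries (log2 fold change 5.62 ± 0.27, adjusted p = 9.51e-08). Col8a1, a short-chain collagen of vessels and the eye, was at 4012, 2681 and 3663 CPM in lymph node and 153, 63.4 and 169.7 CPM in muscle libraries (log2 fold change 4.75 ± 0.40, adjusted p = 5.14e-06). Col8a2 was at 344, 436 and 364 CPM in lymph node and 40.6, 13.1 and 35.6 CPM in muscle libraries (log2 fold change 3.72 ± 0.36, adjusted p = 1.23e-05). Col7a1, the anchoring fibril between epidermis and dermis, was at 37.3, 10.6 and 13.7 CPM in lymph node and 3.31, 1.59 and 1.82 CPM in muscle libraries (log2 fold change 3.26 ± 0.56, adjusted p = 0.000619). Col16a1 was at 271, 205 and 287 CPM in lymph node and 83.3, 21.1 and 58.9 CPM in muscle libraries (log2 fold change 2.25 ± 0.39, adjusted p = 0.000596). The 2 chains of type I collagen differed in outcome: Col1a2 was at 60596, 18859 and 21204 CPM in lymph node and 10060.5, 3808 and 4555 CPM in muscle libraries and passed (log2 fold change 2.45 ± 0.55, adjusted p = 0.00335), while Col1a1 overlapped between the groups. Col3a1, the main collagen of reticular fibres, was at 25956, 7084 and 8094 CPM in lymph node and 12268, 2585 and 5057 CPM in muscle libraries and did not pass (log2 fold change 1.05 ± 0.60, adjusted p = 0.171). Without muscle replicate 1, its highest muscle library, the log2 fold change of Col3a1 was 1.86 (adjusted p = 0.0239).

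Other matrix genes also moved in both directions. Of 47 glycoprotein and proteoglycan genes tested, 13 were higher and 24 lower, against 23% and 24.2% of all genes tested. All 5 laminin genes tested were lower (log2 fold changes -3.49 to -1.61), as were both nidogen genes, whose products link laminin to type IV collagen. Lamc1 was at 38.9, 34.4 and 28.0 CPM in lymph node and 555, 217 and 372 CPM in muscle libraries (log2 fold change -3.49 ± 0.33, adjusted p = 1.02e-05). Nid1 was at 198, 149 and 123 CPM in lymph node and 2391, 992 and 1833 CPM in muscle libraries (log2 fold change -3.47 ± 0.35, adjusted p = 1.53e-05). Hspg2, for perlecan, was at 29.3, 25.0 and 35 CPM in lymph node and 222, 140.0 and 174 CPM in muscle libraries (log2 fold change -2.58 ± 0.23, adjusted p = 7.81e-06). Tnxb, for tenascin X, was at 21.1, 22.9 and 16.3 CPM in lymph node and 205, 99.1 and 176 CPM in muscle libraries (log2 fold change -2.99 ± 0.29, adjusted p = 1.17e-05). Fbn1, for fibrillin 1, was at 280.2, 180.1 and 215 CPM in lymph node and 1803, 502 and 1467 CPM in muscle libraries (log2 fold change -2.48 ± 0.40, adjusted p = 0.000409). Endothelial and muscle cells also make several of these basement membrane proteins, and endothelial markers moved with them as given above, whose part was not tested.

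On the other side, Smoc1, a calcium-binding matrix protein, was at 28.9, 47.0 and 52.0 CPM in lymph node and 0.414, 0.596 and 1.37 CPM in muscle libraries (log2 fold change 5.79 ± 0.45, adjusted p = 2.38e-06). Postn, for periostin, was at 2818, 1995 and 1866 CPM in lymph node and 261, 74.7 and 119 CPM in muscle libraries (log2 fold change 3.88 ± 0.43, adjusted p = 3.23e-05). Tnc, for tenascin C, was at 146, 84.3 and 73.9 CPM in lymph node and 13.3, 7.15 and 3.65 CPM in muscle libraries (log2 fold change 3.66 ± 0.40, adjusted p = 2.62e-05). The small proteoglycan genes Fmod (613, 773 and 1169 against 96.9, 79.8 and 85.3 CPM, log2 fold change 3.29 ± 0.28, adjusted p = 4.78e-06) and Omd (189.9, 226 and 259.6 against 31.5, 27.4 and 28.7 CPM, log2 fold change 2.95 ± 0.21, adjusted p = 1.22e-06) were also higher, as was Mfap4, a partner of elastic fibres (384, 448 and 442 against 84.1, 32.0 and 58.4 CPM, log2 fold change 2.88 ± 0.31, adjusted p = 2.46e-05). For all 6 the libraries separated without overlap, with lymph node above, as for 28.9% of all genes tested. Lum (2925, 1751 and 1612 against 1299, 1667 and 874 CPM, log2 fold change 0.71 ± 0.32, adjusted p = 0.0828) and Eln, for elastin (917, 444 and 551 against 441, 150.2 and 474 CPM, log2 fold change 0.85 ± 0.39, adjusted p = 0.0944), did not pass, although Lum had a log2 fold change of 1.0 (adjusted p = 0.0358) without muscle replicate 2.

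Among 30 enzymes that crosslink or cut the matrix, 5 were higher and 12 lower, against 23% and 24.2% of all genes tested. Loxl4, a lysyl oxidase that crosslinks collagen, was at 85.9, 55.0 and 49.6 CPM in lymph node and 7.87, 2.18 and 16.0 CPM in muscle libraries (log2 fold change 3.01 ± 0.51, adjusted p = 0.000517). Lox was at 390.1, 247 and 299 CPM in lymph node and 123, 89.8 and 89.9 CPM in muscle libraries (log2 fold change 1.63 ± 0.23, adjusted p = 0.000169). The stromelysin gene Mmp3 was at 603, 293 and 365 CPM in lymph node and 149, 166 and 68.9 CPM in muscle libraries (log2 fold change 1.71 ± 0.34, adjusted p = 0.00165). Timp1, an inhibitor of such proteases, was at 85.8, 63.2 and 64.1 CPM in lymph node and 25.3, 13.7 and 13.7 CPM in muscle libraries (log2 fold change 2.03 ± 0.28, adjusted p = 0.000147). Adamts5, which cuts aggrecan and versican, was lower, at 116, 152 and 133 CPM in lymph node and 655, 431 and 727 CPM in muscle libraries (log2 fold change -2.17 ± 0.24, adjusted p = 3.43e-05). Plod2, a collagen lysyl hydroxylase, was at 38.9, 24.7 and 28.3 CPM in lymph node and 146, 62.4 and 123 CPM in muscle libraries (log2 fold change -1.83 ± 0.31, adjusted p = 0.00052). Mmp2 and Mmp14, broad matrix proteases, overlapped between the groups (734, 733 and 882 against 784, 642 and 616 CPM and 290.2, 211 and 208 against 315, 189 and 247 CPM).

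Genes used to recognise fibro-adipogenic progenitors were mostly lower in the lymph node libraries: of 22 tested 13 were lower and 3 higher, with a median log2 fold change of -0.84. Without replicate 1 of both tissues 11 were lower and 3 higher. In the main fit 24.2% of all genes tested were lower and 23% higher. Gdf10, a BMP-family ligand of muscle stroma, was at 18.6, 8.52 and 7.61 CPM in lymph node and 285, 139 and 145 CPM in muscle libraries (log2 fold change -3.99 ± 0.39, adjusted p = 1.34e-05). Hic1, a factor of quiescent mesenchymal progenitors, was at 9.08, 4.70 and 4.35 CPM in lymph node and 53.9, 29.8 and 62.0 CPM in muscle libraries (log2 fold change -2.95 ± 0.37, adjusted p = 7.09e-05). Dpp4, which marks progenitors near vessels and in fascia, was at 50.6, 19.4 and 27.0 CPM in lymph node and 149, 135 and 218 CPM in muscle libraries (log2 fold change -2.35 ± 0.33, adjusted p = 0.000153). Cd55, a complement regulator, was at 37.9, 38.5 and 41.3 CPM in lymph node and 172, 179 and 250.5 CPM in muscle libraries (log2 fold change -2.35 ± 0.21, adjusted p = 7.48e-06). Osr1, a factor of developing muscle stroma, was at 26.4, 23.5 and 26.3 CPM in lymph node and 61.7, 114 and 94.9 CPM in muscle libraries (log2 fold change -1.83 ± 0.25, adjusted p = 0.000126). Gsn, for the actin-severing protein gelsolin, was at 5606, 6564 and 9632 CPM in lymph node and 29058, 37586 and 32858 CPM in muscle libraries (log2 fold change -2.19 ± 0.37, adjusted p = 0.000569). All of these separated without overlap, with muscle above, as did 28.4% of all genes tested. Ly6a, for the surface antigen Sca-1, did not pass (1288, 890.4 and 949 against 705, 773 and 823 CPM, log2 fold change 0.44 ± 0.23, adjusted p = 0.133), and Thy1 did not either (229.9, 175 and 180.2 against 179, 84.8 and 149.6 CPM, log2 fold change 0.51 ± 0.26, adjusted p = 0.129). Without muscle replicate 1 Thy1 was higher by 0.76 (adjusted p = 0.0419). Dlk1, a progenitor gene, was higher in the lymph node libraries, at 44.4, 43.5 and 32.8 CPM in lymph node and 7.04, 11.3 and 1.37 CPM in muscle libraries (log2 fold change 2.49 ± 0.44, adjusted p = 0.000705). The lipocalin gene Apod was also higher, at 1301, 1567 and 1535 CPM in lymph node and 353, 655 and 554 CPM in muscle libraries (log2 fold change 1.49 ± 0.27, adjusted p = 0.000763).

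The chemokines and cytokines that lymph node stroma is known for did not move one way. Of 8 homing chemokine and decoy receptor genes tested, 3 were higher and 2 lower, and of 11 survival cytokines 4 were lower and 7 were not called. Over all genes tested 23% were higher and 24.2% lower. In a wider list of reticular stroma genes 6 of 18 were higher and 5 lower, and the lower genes numbered 3 without lymph node replicate 1 and 2 without replicate 1 of both tissues. Ackr4, a scavenger of Ccl19 and Ccl21a found on lymph node vessels and in epidermis, was at 91.8, 46.7 and 59.8 CPM in lymph node and 9.53, 7.35 and 6.84 CPM in muscle libraries (log2 fold change 3.07 ± 0.31, adjusted p = 1.61e-05). Cxcl12, a chemokine of most stroma, was at 419, 503 and 315 CPM in lymph node and 328, 387 and 276 CPM in muscle libraries (log2 fold change 0.32 ± 0.23, adjusted p = 0.28). Its scavenger Ackr3 was lower, at 86.6, 60.8 and 93.0 CPM in lymph node and 571, 359 and 457 CPM in muscle libraries (log2 fold change -2.52 ± 0.25, adjusted p = 1.41e-05). Il33, an alarmin cytokine, was at 56.4, 51.7 and 47.0 CPM in lymph node and 131, 148 and 211 CPM in muscle libraries (log2 fold change -1.66 ± 0.22, adjusted p = 0.000109). Csf1, which sustains macrophages, was at 129.6, 152 and 97.0 CPM in lymph node and 305, 196 and 289 CPM in muscle libraries (log2 fold change -1.06 ± 0.24, adjusted p = 0.00317). Cxcl14 was at 239.7, 146 and 144 CPM in lymph node and 457, 595 and 357 CPM in muscle libraries (log2 fold change -1.41 ± 0.27, adjusted p = 0.00114). Tnfsf13b, the B cell survival factor BAFF, was at 0.162, 0.882 and 0.435 CPM in lymph node and 3.31, 11.7 and 2.74 CPM in muscle libraries (log2 fold change -3.78 ± 0.75, adjusted p = 0.00161). Il6 overlapped between the groups (190.0, 115 and 120.2 against 258, 83.6 and 110.4 CPM).

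The count of inflammatory chemokines called depended on single libraries. Of 10 tested 3 were higher and 1 lower, without muscle replicate 1 there were 7 higher and 1 lower, and without lymph node replicate 1 there was 1 higher. Ccl2, which attracts monocytes, was at 1336, 1027 and 989 CPM in lymph node and 1395, 281 and 267 CPM in muscle libraries (log2 fold change 0.79 ± 0.52, adjusted p = 0.235). Muscle replicate 1 reached the lymph node range, and without it the log2 fold change was 2.04 (adjusted p = 0.00016). Cxcl2, which attracts neutrophils, had the same shape, at 49.1, 43.2 and 58.0 CPM in lymph node and 50.5, 5.56 and 4.56 CPM in muscle libraries (log2 fold change 1.36 ± 0.65, adjusted p = 0.106), and 3.28 (adjusted p = 2.31e-05) without that library. Ccl11, the eosinophil chemokine eotaxin, was lower in every lymph node library, at 42.2, 45.6 and 83.7 CPM in lymph node and 342, 434 and 377 CPM in muscle libraries (log2 fold change -2.75 ± 0.28, adjusted p = 1.6e-05). In the lymphotoxin and NF-kB list, the pathway through which lymph node stroma matures, 2 of 21 genes were higher and 3 lower. Both lists stand beside 23% higher and 24.2% lower among all genes tested. Without muscle replicate 1, 5 were higher and 1 lower, and without any single one of the lymph node libraries 1 was higher and 1 lower. Icam1, an adhesion molecule and target of NF-kB, was at 72.0, 82.9 and 46.3 CPM in lymph node and 26.1, 23.4 and 24.6 CPM in muscle libraries (log2 fold change 1.44 ± 0.25, adjusted p = 0.000676). Ltbr, the lymphotoxin receptor (34.5, 31.4 and 25.2 against 36.9, 29.0 and 32.4 CPM, log2 fold change -0.10 ± 0.23, adjusted p = 0.748), Vcam1 (158, 154 and 94.8 against 171, 125 and 136 CPM, log2 fold change -0.08 ± 0.23, adjusted p = 0.792) and the inhibitor Nfkbia (1480.4, 1835 and 1491 against 1265, 1054 and 914 CPM, log2 fold change 0.57 ± 0.24, adjusted p = 0.0662) did not pass. Without muscle replicate 1 Nfkbia passed, at 0.72 (adjusted p = 0.0331).

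Interferon-stimulated genes, which cells switch on after sensing interferon, were lower in the lymph node libraries. Of 31 tested 24 were lower and 7 were not called, with a median log2 fold change of -1.63. Among all genes tested 24.2% were lower. Without replicate 1 of both tissues 22 were lower and 1, Irf1, was higher. Several share in their promoters the interferon-stimulated response element, whose core repeats GAAA, and the stretches before 3 of the lower genes show it. They are given 5′ to 3′ on the gene's strand from RefSeq (GRCm38.p6), 150 bases that end at the base before the annotated start, with each match to GAAANNGAAA on either strand in capitals.
Rsad2 (chr12:26456453-26456602, minus strand): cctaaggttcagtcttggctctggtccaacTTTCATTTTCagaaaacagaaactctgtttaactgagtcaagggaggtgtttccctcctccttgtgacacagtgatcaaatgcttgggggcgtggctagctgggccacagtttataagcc
Isg15 (chr4:156200819-156200968, minus strand): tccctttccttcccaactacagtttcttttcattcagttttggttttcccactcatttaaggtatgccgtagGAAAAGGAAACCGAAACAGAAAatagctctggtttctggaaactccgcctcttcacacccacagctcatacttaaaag
Irgm2 (chr11:58214827-58214976, plus strand): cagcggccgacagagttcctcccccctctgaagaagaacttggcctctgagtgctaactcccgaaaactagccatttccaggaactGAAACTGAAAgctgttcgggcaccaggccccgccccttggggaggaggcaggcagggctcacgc

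The reverse complement TTTCNNTTTC marks the element on the opposite strand, as in Rsad2, and overlapping matches in Isg15 merge into 1 run. Of the 24 lower genes 18 were matched in the promoter table, with 21 promoters, and 11 of these promoters (52.4%) held a match in the 250 bases before the start, against 978 of 32851 promoters (2.98%) in the table. Of the 30 promoters of all interferon-stimulated genes tested, 14 (46.7%) held one, so the share in the lower genes was close to that of the list they come from. A match describes letters only, not binding.

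Rsad2, for the antiviral enzyme viperin, was at 2.59, 3.82 and 5.22 CPM in lymph node and 24.4, 26.4 and 15.1 CPM in muscle libraries (log2 fold change -2.53 ± 0.37, adjusted p = 0.000211). Isg15, a ubiquitin-like modifier, was at 7.78, 5.58 and 6.74 CPM in lymph node and 31.9, 15.5 and 26.5 CPM in muscle libraries (log2 fold change -1.84 ± 0.34, adjusted p = 0.000941). Irgm2, a GTPase that acts against parasites, was at 8.43, 7.93 and 10.00 CPM in lymph node and 24.9, 30.4 and 26.5 CPM in muscle libraries (log2 fold change -1.63 ± 0.26, adjusted p = 0.000379). The GTPase gene Iigp1 was at 10.1, 9.40 and 15.7 CPM in lymph node and 125, 173 and 155 CPM in muscle libraries (log2 fold change -3.68 ± 0.26, adjusted p = 1.12e-06). Ifit1, which binds foreign RNA, was at 10.1, 11.5 and 8.48 CPM in lymph node and 100.2, 48.5 and 55.2 CPM in muscle libraries (log2 fold change -2.76 ± 0.31, adjusted p = 3.51e-05). Among the factors that transmit the interferon signal, Stat2 was at 19.3, 12.9 and 17.4 CPM in lymph node and 65.0, 55.6 and 63.0 CPM in muscle libraries (log2 fold change -1.87 ± 0.23, adjusted p = 6.83e-05). Irf7 was at 5.03, 8.23 and 8.26 CPM in lymph node and 26.1, 17.3 and 25.5 CPM in muscle libraries (log2 fold change -1.68 ± 0.32, adjusted p = 0.00129). All of these separated without overlap between the tissues, with muscle above, as did 28.4% of all genes tested. Ifit3 (17.5, 21.7 and 19.1 against 14.5, 31.6 and 16.0 CPM, log2 fold change -0.13 ± 0.32, adjusted p = 0.763) and Irf1 (365, 262 and 242 against 307, 109 and 161 CPM, log2 fold change 0.60 ± 0.33, adjusted p = 0.155) did not pass, and without muscle replicate 1 Irf1 was higher by 1.12 (adjusted p = 0.00656). In the young sorts Ifit1 had its highest mean, 328.0 CPM, in thymic epithelial cells, followed by 168.1 in the lymph node endothelial sort.

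Among antigen presentation genes, all 6 class II genes tested were higher in the lymph node libraries, with a median log2 fold change of 2.90, at low levels: their list summed to 85.8 to 96.1 CPM against 9.73 to 16.9 in muscle. H2-Ab1, H2-Aa, Cd74 and H2-DMb1 averaged 1.22, 1.96, 2.58 and 2.64 CPM in muscle. They passed the minimum only through the lymph node libraries, which fixed their direction. H2-Ab1, a class II chain, was at 28.2, 20.3 and 23.3 CPM in lymph node and 2.07, 1.59 and 0 CPM in muscle libraries (log2 fold change 4.15 ± 0.50, adjusted p = 5.5e-05), and Cd74, the invariant chain, at 22.2, 20.3 and 16.1 CPM in lymph node and 2.90, 1.19 and 3.65 CPM in muscle libraries (log2 fold change 3.05 ± 0.42, adjusted p = 0.000147). Macrophage markers moved with them, as given above, Lyz2 among them (26.3, 19.1 and 22.0 against 4.56, 1.79 and 4.11 CPM, log2 fold change 2.79 ± 0.39, adjusted p = 0.000148). Of 17 class I pathway genes 2 were higher and 5 lower, against 23% and 24.2% of all genes tested, and in the test against a log2 difference of 1 the 2 lower calls stood beside 0 higher. B2m, the light chain of class I, was at 1205, 1277 and 1290.4 CPM in lymph node and 486, 753 and 672 CPM in muscle libraries (log2 fold change 0.98 ± 0.24, adjusted p = 0.00487), while the heavy chain gene H2-K1 was at 128, 107 and 119.6 CPM in lymph node and 258, 205 and 224 CPM in muscle libraries (log2 fold change -0.95 ± 0.19, adjusted p = 0.00154). Class I heavy chains are close copies of each other, so reads may be shared between them. Of 13 complement genes 7 were lower and 2 higher, against 24.2% and 23% of all genes tested. The protease gene C1s1 was at 104, 84.0 and 101 CPM in lymph node and 535, 415 and 509 CPM in muscle libraries (log2 fold change -2.33 ± 0.21, adjusted p = 7.37e-06). The central component C3 was at 197, 231 and 215 CPM in lymph node and 609, 343 and 638 CPM in muscle libraries (log2 fold change -1.31 ± 0.25, adjusted p = 0.00128).

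Genes of developmental signalling pathways were called in both directions. Wnt ligands act through Fzd receptors, secreted inhibitors such as Sfrp, Dkk and Wif1 hold them back, and Axin2 and Lef1 are common targets. Of 31 genes of the pathway 12 were higher and 7 lower in the lymph node libraries, against 23% and 24.2% of all genes tested. The inhibitor Wif1 was at 1308, 1059 and 1452 CPM in lymph node and 1.24, 8.94 and 4.56 CPM in muscle libraries (log2 fold change 7.86 ± 0.48, adjusted p = 3.87e-07), and its mean of 1265 CPM was the highest of the young sorts, followed by 51.3 in satellite cells. Dkk3 was at 421, 341 and 495 CPM in lymph node and 48.9, 53.0 and 57.9 CPM in muscle libraries (log2 fold change 2.98 ± 0.22, adjusted p = 1.66e-06). Frzb, an inhibitor found in cartilage, was at 44.4, 52.0 and 49.3 CPM in lymph node and 0, 2.38 and 4.11 CPM in muscle libraries (log2 fold change 4.47 ± 0.49, adjusted p = 2.72e-05). Sfrp4 went the other way, at 52.2, 28.5 and 40.4 CPM in lymph node and 306, 244 and 264 CPM in muscle libraries (log2 fold change -2.74 ± 0.24, adjusted p = 7.1e-06). Of the receptors, Fzd1 was higher (123, 102 and 142 against 34.0, 18.7 and 31.0 CPM, log2 fold change 2.15 ± 0.26, adjusted p = 5.07e-05) and Fzd4 lower (48.2, 37.3 and 46.1 against 215, 218 and 209 CPM, log2 fold change -2.28 ± 0.19, adjusted p = 4.72e-06). The targets Axin2 (33.9, 47.0 and 21.3 against 2.07, 1.19 and 9.12 CPM, log2 fold change 3.22 ± 0.57, adjusted p = 0.000737) and Lef1 (14.3, 15.3 and 15.7 against 0.414, 1.59 and 3.19 CPM, log2 fold change 3.14 ± 0.48, adjusted p = 0.000267) were both higher.

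In the TGF-beta and BMP pathway, of 36 genes 7 were higher and 16 lower, against 23% and 24.2% of all genes tested. BMP ligands signal through receptors to induce the Id genes, which block helix-loop-helix factors. Bmp4 was lower in the lymph node libraries, at 21.4, 15.9 and 45.9 CPM in lymph node and 103, 156 and 147 CPM in muscle libraries (log2 fold change -2.28 ± 0.34, adjusted p = 0.000255), and so were the receptors Tgfbr2 (145, 138 and 154 against 372, 235 and 390.1 CPM, log2 fold change -1.19 ± 0.22, adjusted p = 0.00115) and Bmpr2 (115, 104 and 75.7 against 227, 209 and 189 CPM, log2 fold change -1.08 ± 0.21, adjusted p = 0.00124). All 3 Id genes tested were higher, with log2 fold changes from 1.83 to 3.48. Id1 was at 401, 423 and 383 CPM in lymph node and 26.1, 49.5 and 31.0 CPM in muscle libraries (log2 fold change 3.48 ± 0.26, adjusted p = 1.84e-06). Id3 was at 1264, 1279.5 and 1413 CPM in lymph node and 336, 350.4 and 266 CPM in muscle libraries (log2 fold change 2.05 ± 0.22, adjusted p = 2.79e-05). Tgfb3, a ligand, was higher, at 146, 154 and 206 CPM in lymph node and 52.2, 50.5 and 57.5 CPM in muscle libraries (log2 fold change 1.66 ± 0.20, adjusted p = 6.19e-05). Bmp2 overlapped (121, 132 and 114 against 152, 71.7 and 156 CPM). Without replicate 1 of both tissues the list had 7 genes higher and 11 lower.

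Enzymes that shape small lipid signals were called in both directions, with 8 of 18 higher and 5 lower. Of all genes tested, 23% were higher and 24.2% lower. Retinoic acid is made by the Aldh1a enzymes: Aldh1a2 (3.41, 3.82 and 1.3 against 55.5, 18.3 and 25.1 CPM, log2 fold change -3.51 ± 0.49, adjusted p = 0.00016) and Aldh1a3 (2.59, 2.64 and 2.17 against 28.6, 16.3 and 35.1 CPM, log2 fold change -3.40 ± 0.38, adjusted p = 3.47e-05) were lower, and Aldh1a1 (169.6, 163 and 212 against 75.0, 124 and 78.0 CPM, log2 fold change 0.97 ± 0.23, adjusted p = 0.00501) was higher in the lymph node libraries. Crabp1, which binds retinoic acid in the cell, was at 54.5, 21.7 and 29.6 CPM in lymph node and 1.24, 0.199 and 0.456 CPM in muscle libraries (log2 fold change 5.98 ± 0.59, adjusted p = 1.35e-05). Ptgs2, the inducible enzyme of prostaglandin synthesis, was at 25.8, 15.9 and 13.5 CPM in lymph node and 273, 75.1 and 172 CPM in muscle libraries (log2 fold change -3.21 ± 0.42, adjusted p = 0.000102). Ptgis, the prostacyclin synthase gene, was at 177, 179.9 and 265 CPM in lymph node and 29.4, 15.9 and 24.2 CPM in muscle libraries (log2 fold change 3.19 ± 0.27, adjusted p = 5.66e-06). Among contractile genes 6 of 16 were higher and 3 lower, beside the same shares of all genes. Acta2, the actin of smooth muscle and myofibroblasts, was at 59.8, 50.3 and 62.8 CPM in lymph node and 8.28, 8.94 and 6.84 CPM in muscle libraries (log2 fold change 2.82 ± 0.25, adjusted p = 6.42e-06). Itga8, an integrin of such cells, was at 168, 187 and 171 CPM in lymph node and 42.3, 46.9 and 31.9 CPM in muscle libraries (log2 fold change 2.11 ± 0.20, adjusted p = 1.25e-05). Des, for desmin, was at 3.73, 3.82 and 2.39 CPM in lymph node and 24.0, 12.7 and 15.5 CPM in muscle libraries (log2 fold change -2.37 ± 0.38, adjusted p = 0.000411).

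Immediate-early and heat-shock genes were called in both directions, 10 of 34 higher and 7 lower, near the 23% and 24.2% of all genes tested. Fosb was lower in the lymph node libraries, at 198, 250.4 and 174 CPM in lymph node and 871, 602 and 581 CPM in muscle libraries (log2 fold change -1.72 ± 0.24, adjusted p = 0.00016). Fosl1 was higher, at 14.9, 10.6 and 15.9 CPM in lymph node and 0.414, 1.19 and 0.456 CPM in muscle libraries (log2 fold change 4.06 ± 0.49, adjusted p = 5.49e-05). Fos (2695, 2173 and 2323 against 1580.3, 1888 and 2078 CPM, log2 fold change 0.37 ± 0.25, adjusted p = 0.231) and Jun (2662, 2434 and 2578 against 2944, 4183 and 3756 CPM, log2 fold change -0.50 ± 0.26, adjusted p = 0.129) did not pass. Of 21 proliferation genes 8 were higher and 13 were not called, with a median log2 fold change of 0.79. The mitotic kinase gene Cdk1 was at 15.6, 15.3 and 15.2 CPM in lymph node and 3.73, 3.97 and 5.93 CPM in muscle libraries (log2 fold change 1.78 ± 0.34, adjusted p = 0.00115). Hmgb2, abundant in dividing cells, was at 67.5, 70.2 and 79.1 CPM in lymph node and 27.8, 23.4 and 24.2 CPM in muscle libraries (log2 fold change 1.53 ± 0.21, adjusted p = 0.000127). Mki67, a marker of cycling cells, was at 14.6, 20.3 and 10.9 CPM in lymph node and 12.4, 5.56 and 5.02 CPM in muscle libraries and did not pass (log2 fold change 1.01 ± 0.41, adjusted p = 0.0587). It passed without muscle replicate 1 (1.51, adjusted p = 0.00986) or lymph node replicate 3 (1.23, adjusted p = 0.0474).

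**Figure D4:**
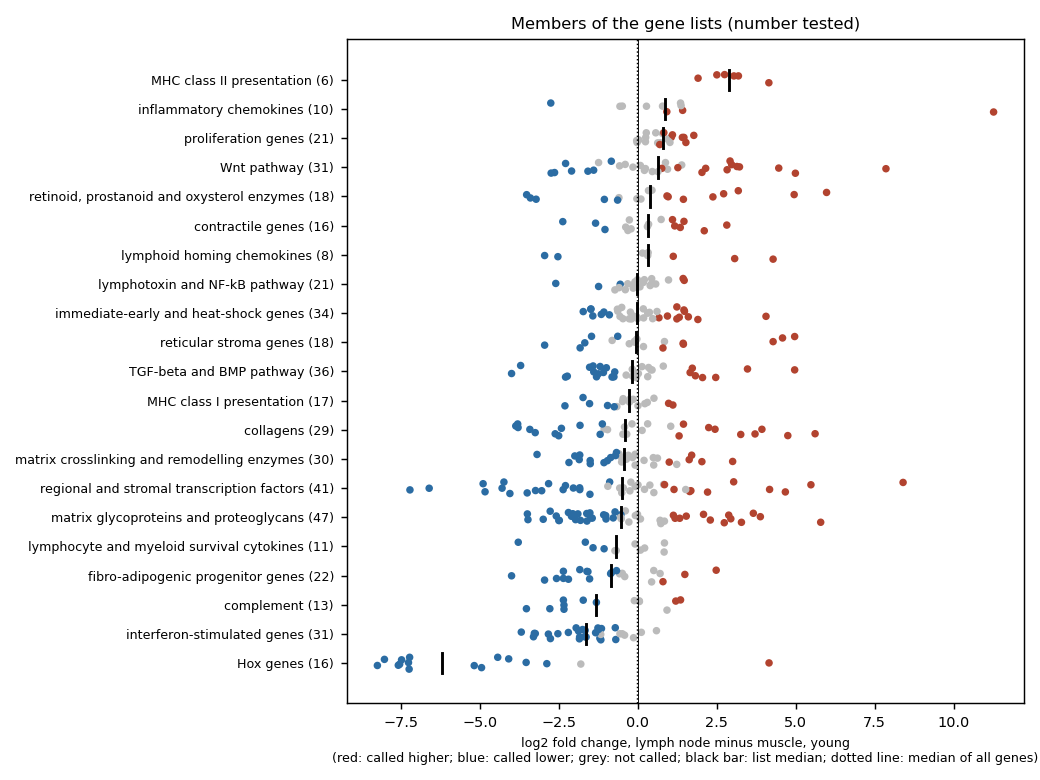
Log2 fold change of each tested member of the 21 gene lists, sorted by list median (black bar), with the number tested in brackets. Red and blue points are genes called higher and lower, the dotted line is the median of all genes (-0.03), and the Hox list lies farthest to the left with 14 of 16 genes lower.

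The contrast was repeated in old animals, whose libraries the young comparison did not use. Total counts ran from 1816124 to 4098674. Of 12613 genes tested 3594 were called (28.5%), 1732 higher (13.7%) and 1862 lower (14.8%), and the libraries did not overlap for 43.6% (lymph node above for 22.4%, muscle above for 21.2%). Of the genes higher in the young lymph node libraries, 2942 were tested in old animals and 96.6% had the same sign. Both comparisons called 1428 of them, which is 45.0% of the young and 82.4% of the old calls, and 0 were called in the opposite direction. Of the genes lower in young, 2955 were tested, 96.4% had the same sign, 1614 were called in both (48.4% of the young and 86.7% of the old calls) and 2 were called opposite. These were Wnt5a, a ligand (-0.83 ± 0.22 in young and 0.90 ± 0.27 in old animals), and Epha4, an ephrin receptor (-0.78 ± 0.27 and 0.99 ± 0.32), named after their values were seen, and the interaction test did not call either. The young call of Wnt5a was lost without lymph node replicate 3 (adjusted p = 0.0595), without replicate 1 of both tissues (0.0600) and in the fit with thymic fibroblasts (0.0828), and that of Epha4 without muscle replicate 1 or any 1 lymph node library (adjusted p from 0.0518 to 0.147). The old call of Wnt5a was lost without lymph node replicate 1 or 3 or muscle replicate 1 (adjusted p from 0.0759 to 0.0954). That of Epha4 was lost without lymph node replicate 1 or 3 or muscle replicate 3 (adjusted p from 0.0748 to 0.143). Over 12436 genes the log2 fold changes had a Pearson correlation of 0.898, a description across genes, which are not independent.

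Some of the groups had similar counts in old animals and others did not. Calls were fewer over all genes tested, at 13.7% higher and 14.8% lower, against 23% and 24.2% in young. Fewer calls in a list therefore do not show a change with age. The interaction test called only Cyp2f2 and Col8a1. In old animals 13 of 16 Hox genes were lower and Hoxa2 was higher, all 7 keratinocyte markers were higher, all 9 blood endothelial markers tested were lower, and all 6 cartilage genes tested were higher. At this age too, a gene near 0 in 1 group passes the minimum only through the other, which fixes its direction. Of 31 interferon-stimulated genes 11 were lower and Irf1 was higher (0.84 ± 0.29, adjusted p = 0.0432). The call of Irf1 was lost without any 1 of the old libraries other than muscle replicate 2 (adjusted p from 0.0543 to 0.2297). Of 7 class II genes 3 were higher. Wnt genes were higher in 18 of 30 and lower in 6. Collagens went from 9 higher and 11 lower in young to 10 higher and 8 lower of 28, with a median log2 fold change of 0.24 in place of -0.42. The TGF-beta and BMP list had 9 genes higher and 9 lower of 35, and the class I list 1 and 1 of 17. Of 11 survival cytokines 1 was higher and 3 were lower, with a median of 0.06 against -0.68 in young. Among single genes, the old log2 fold change was -8.0 ± 0.48 for Hoxc10 (adjusted p = 1.74e-07), 9.20 ± 0.46 for Wif1 (adjusted p = 1.74e-07), 2.66 ± 0.93 for Ccl19 (adjusted p = 0.0468) and -2.32 ± 0.48 for Cxcl13 (adjusted p = 0.00269). The old call of Ccl19 was lost with DESeq2 (adjusted p = 0.179) and without any 1 old library other than lymph node replicate 1 (adjusted p from 0.0528 to 0.161). Col1a1 was called in old animals, at 1.61 ± 0.53 (adjusted p = 0.0342), and the interaction test did not call it, which does not show that the values at both ages are alike. The old call of Col1a1 was lost with DESeq2 (adjusted p = 0.101) and without any 1 old muscle library (adjusted p from 0.0540 to 0.123). Without old lymph node replicate 1 its value was 0.60 (adjusted p = 0.275).

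A test of the interaction between tissue and age over all 12 libraries called 2 of 14075 genes (0.0142%), 1 in each direction (0.0071%), and 1157 had an unadjusted p under 0.05. In this fit levels are scaled over all 12 libraries. Cyp2f2, a cytochrome P450 of xenobiotic metabolism, was at 187, 227 and 209.8 CPM in young and 360.4, 489 and 546.5 CPM in old lymph node libraries. In muscle it was at 67.9, 40.9 and 35.3 CPM in young and 9.27, 12.6 and 9.12 CPM in old animals. The tissue difference was thus larger in old animals, by 3.37 ± 0.40 on the log2 scale (adjusted p = 0.000943), and libraries of the 2 ages did not overlap in either tissue. Col8a1 was at 4054, 2709 and 3702 CPM in young and 533, 834 and 1064 CPM in old lymph node libraries, and in muscle at 154, 63.6 and 170.4 CPM in young and 281, 261 and 241 CPM in old animals. Its tissue difference was smaller in old animals, with a change of -3.13 ± 0.48 on the log2 scale (adjusted p = 0.0243). That call was lost without old lymph node replicate 2 (adjusted p = 0.122), old muscle replicate 1 (0.0915), young lymph node replicate 3 (0.0710), young muscle replicate 1 (0.0590) or young muscle replicate 2 (0.0506).

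**Figure D5:**
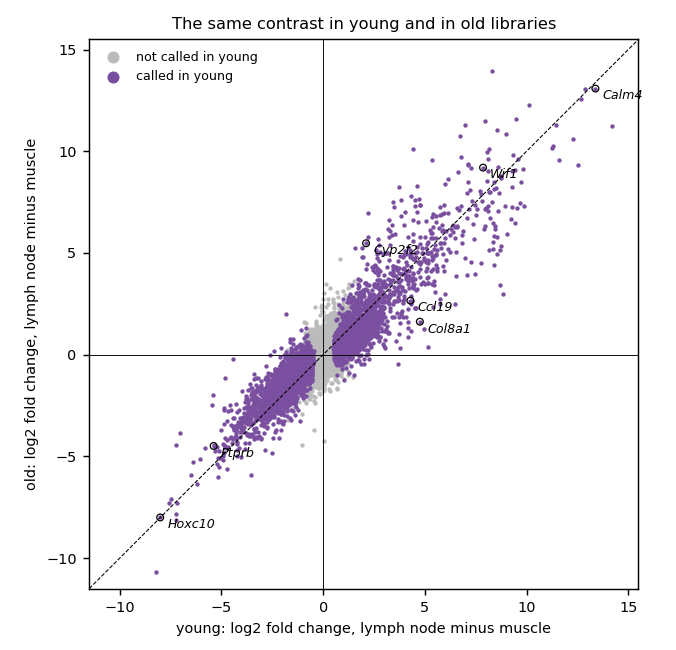
Log2 fold change, lymph node minus muscle, of each gene tested at both ages, with young animals on the x axis, old animals on the y axis, and the dashed line where both are equal. Purple marks genes called in young animals, Hoxc10 lies near the line, Cyp2f2 lies above it and Col8a1 below.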

How the data were processed

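Gene expression was measured in cells sorted by flow cytometry, and, per the labels' protocols, each library pooled tissue of 5 animals. Libraries were primed at poly(A) tails, so reads come from 3′ ends, with an index of 8 bp and a molecular identifier of 10 bp. The sources used here do not say whether the molecular identifiers served to collapse copies. Tools in the submitters' processing notes are featureCounts 2.0.1, STAR and sabre 80faf94, with mm10 and GRCm38.p6 as builds. The authors deposited whole-number counts for 55484 genes, with no normalization.

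Groups follow the sample titles. Counts were tested with edgeR 4.0.16 in R 4.3.3 (glmQLFit and glmQLFTest, TMM scaling), on genes kept by filterByExpr (minimum count 10, minimum total 15), and p-values were adjusted by Benjamini-Hochberg over all genes tested in a comparison. The test was tried on simulated counts. Tissue and age were tested together, with their interaction, over 12 libraries. The standard error is the absolute log2 fold change divided by the square root of F. For genes with 0 counts in a group, folds are bounds against 3 counts over the group, and with 1 to 3 counts they are ratios with exact 95% intervals. Bounds and intervals cover counting error only, and without removal of copies counts may not be independent molecules. Levels in other sorts are plain CPM. Mitochondrially encoded genes had 0 counts, and 26 entries whose names were turned into dates (at most 0.375% of counts) could not be named. Coordinates are those of GENCODE M21 on GRCm38 and promoters those of RefSeq on GRCm38.p6.

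The members and the gene lists were chosen with earlier results of these data known. Genes named are Ccl19 and Col1a1, the 12 highest and 12 lowest log2 fold changes among called genes without overlap of libraries whose higher group reached 20 CPM, up to 6 called members per list and direction whose higher group reached 10 CPM, up to 3 members not called, the 6 genes of highest mean level in each group, and the called interaction genes. Sex-linked genes, unnamed models, pseudogenes, antisense genes and receptor segments were left out of the 12. Other genes were named after their values were seen.

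Alternatives were DESeq2 1.42.0, RLE size factors, no filter, a block for the replicate number, leaving out each library, a test against a log2 difference of 1, and a fit that includes thymic fibroblasts. Leaving out replicate 1 of both tissues was chosen after seeing the data. Results for some genes are not reported here.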

Additional observations from a re-analysis of the deposited data

Results flagged for a closer look

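For 2 genes the difference between lymph node and muscle libraries was not the same in young and in old animals, by the interaction test of edgeR over all 12 libraries. For Cyp2f2 the tissue difference was larger in old animals by 3.37 on the log2 scale (adjusted p = 0.000943), and for Col8a1 it was smaller, with a value of -3.13 (adjusted p = 0.0243). The old lymph node libraries lay above the young ones for Cyp2f2 and below them for Col8a1, in 3 of 3 libraries each.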

How the results depend on the processing

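The count of genes called in the young comparison ran from 6265 to 7244 with DESeq2 (6265), RLE size factors (6466), no filter (7244) and a joint fit with thymic fibroblasts (6374), and from 5190 to 6451 when 1 library was left out (higher 2644 to 3312, lower 2546 to 3189). A test against a log2 difference of 1 called 2585 genes, 1314 higher and 1271 lower, since it asks for more than a difference from 0. The labels do not say what a replicate number marks. Replicate 1 of both young tissues shared Y-linked transcripts, but same-numbered libraries of both tissues correlated at 0.107, 0.00112 and 0.0423 in young and at 0.0534, 0.14 and 0.0153 in old animals, and not every library correlated best with its own number, so the numbers were not taken to pair the libraries. With the replicate block 6461 genes were called in young, 3978 in old animals and 18 in the interaction (12 higher, 6 lower). Among genes given as not passing in young, the block called Col3a1 (1.07, adjusted p = 0.0148), Eln (0.95, 0.00851), Cxcl2 (1.97, 0.00384), Ccl2 (1.25, 0.00701), Irf1 (0.70, 0.0241) and Mki67 (1.06, 0.0371), all by edgeR. DESeq2 called Dcn (0.77, adjusted p = 0.00419), Lum (0.75, 0.0328), Eln (0.89, 0.0436), Nfkbia (0.61, 0.0157) and Mki67 (1.04, 0.04165). Dcn, Eln, Nfkbia, Mki67, Cxcl2 and Hoxb2 also passed without a filter and in the fit with thymic fibroblasts. The interaction count was 88 without a filter (46 higher, 42 lower), 37 with DESeq2 (24 higher, 13 lower) and 1 to 5 without 1 library (1 to 3 higher, 0 to 2 lower), and the cause was not tested. In old animals 2547 to 5117 genes were called without 1 library (higher 1222 to 2588, lower 1325 to 2529). Leaving out a library where a tissue keeps 2 assumes that these vary like the rest. Among 4244 values of named genes in the young comparison, 3997 kept their side of the threshold, 164 lost the call and 83 gained it. With a call in the main fit or the alternative, 0 changed direction. Changes of sign without a call in either fit were counted as kept. Depth limits genes under about 10 counts per library, which were not tested.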
